A study of Pinus pinaster with 24 samples.

Results

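The 100 transcripts described here were chosen from 47118 measured in the root tip of the conifer Pinus pinaster, maritime pine, for a lower mean after ammonium than after water in each of 4 tissues. For each transcript and tissue, the mean of log2(value + 1) over the 3 water libraries was subtracted from that over the 3 ammonium libraries. Transcripts were ranked by the largest of their 4 differences, and the 100 lowest were taken. The differences used for this choice are described below and were not tested. Of all 47118 transcripts, 8594 (18.2%) had differences below 0 in all 4 tissues and 7233 (15.4%) had differences above 0 in all 4.

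The seedlings were about 1 month old and came from a single seed provenance. All were given a nutrient solution free of nitrogen and, after 3 days, 80 mL of either water (the controls) or 3 mM NH4Cl. Root tips were taken 24 h later and cut into 30 µm sections, from which a laser isolated areas that approximately matched the root cap, the meristem, the developing vessels and the developing cortex. RNA of each area was amplified as cDNA and sequenced, giving 24 libraries in 8 groups of 3, and the titles number the 3 experiments 1, 3 and 4. Here a set means the 4 tissue libraries with the same treatment and the same experiment number, so there were 6 sets. The number of seedlings behind a library is not stated in the labels, nor whether a set's tissues were cut from the same root tips. The p-values therefore reflect library-to-library spread, part of which may be technical.

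Ammonium is a nitrogen source that roots take up through transporters of the AMT family and assimilate mainly through glutamine synthetase and glutamate synthase. The root cap covers and protects the tip, the meristem supplies dividing cells, developing vessels form the water-conducting tissue, and the cortex lies between the epidermis and the vascular cylinder. The table pairs 0 of its identifiers with a gene name, so the roles of the 100 transcripts, the defining markers of each tissue and the known nitrogen genes could not be read from it.

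The values are reads per transcript divided by a scaled library size, and the libraries held between 67135340 and 88268689 recovered reads. A count of 3 reads, used as the limit of detection, corresponded to a value of 0.0309 to 0.0493, which covers counting error only. Across all transcripts, 3 ammonium libraries were closer to water libraries of another tissue than to those of their own. The meristem library of experiment 3 had a mean r of 0.930 with cortex and 0.836 with meristem, that of experiment 4 had 0.878 with root cap and 0.863 with meristem, and the cortex library of experiment 1 had 0.921 with root cap and 0.911 with cortex.

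All 100 transcripts passed the filter on low values used for testing (3 or more libraries with a value of 1 or more, met by 46960 transcripts). Their mean over the 12 water libraries ran from 1.07 to 179, with a median of 6.84, against a median of 4.09 over all transcripts. By identifier they formed 78 runs of consecutive numbers, 10 of which held more than 1 member and 32 members in all. At 59 of the 100, every library held more than 3 reads, and the other 41 were at or under 3 reads in at least 1 library.

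The median difference between ammonium and water over the 100 transcripts was -1.05 in root cap, -1.14 in meristem, -0.83 in developing vessels and -1.01 in developing cortex, against -0.01, 0.01, -0.01 and -0.03 over all transcripts. These medians follow from the choice. In amplified RNA of a dissected area, fewer cells of a type and less RNA per cell cannot be told apart. The most negative single difference was -4.99, in cortex, and belonged to pp_95532, which was named after its values were seen. In cortex it stood at 240, 325 and 254 in the water libraries of experiments 1, 3 and 4 and at 11.8, 0.214 and 39.3 in the ammonium libraries. In vessels its water values of 22.1, 28.5 and 6.01 overlapped with ammonium values of 8.19, 7.85 and 15.2.

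At the edge of the rule, ranks 98, 99 and 100 (pp_202491, pp_202726 and pp_165627) had largest differences of -0.589, -0.587 and -0.586. The next ranks, 101, 102 and 103 (pp_135071, pp_189103 and pp_223097), had -0.586, -0.585 and -0.581. No gap separated the members from the transcripts just outside.

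The 3 experiments contributed unequally to the lower means. Averaged over the 4 tissues of an experiment, the median difference over the 100 transcripts was -0.26 in experiment 1, -1.85 in experiment 3 and -1.25 in experiment 4. All 4 tissues lay below water for 25 members in experiment 1, 83 in experiment 3 and 71 in experiment 4, against 6.40%, 15.8% and 15.9% of all transcripts. The choice favours such members. In experiment 1 the medians were -0.80 in root cap, -0.24 in meristem, -0.19 in vessels and 0.00 in cortex. In these tissues 79, 64, 63 and 47 members were lower with ammonium, against 48.0%, 52.5%, 44.2% and 47.8% of all transcripts.

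Only 8 of the 100 were lower with ammonium in all 12 pairs of an experiment and a tissue (0.393% of all transcripts), 70 were lower in 9 to 11 pairs, and 22 in 4 to 8. Taking a mean difference of -0.5 or lower in an experiment as a mark, 21 members met it in experiments 1, 3 and 4, 38 in experiments 3 and 4, 10 in experiments 1 and 3, and 9 in experiments 1 and 4. The remaining members met it in a single experiment, 16 in experiment 3 and 6 in experiment 4. The SD over the 3 experiments of a member's mean difference over tissues had a median of 1.05. The SD of its single differences over the 4 tissues within an experiment had a median of 0.59. The choice favours members whose tissues fall alike, and these SDs were not set beside all transcripts. Their order is therefore not read as a result.

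**Figure D1:**
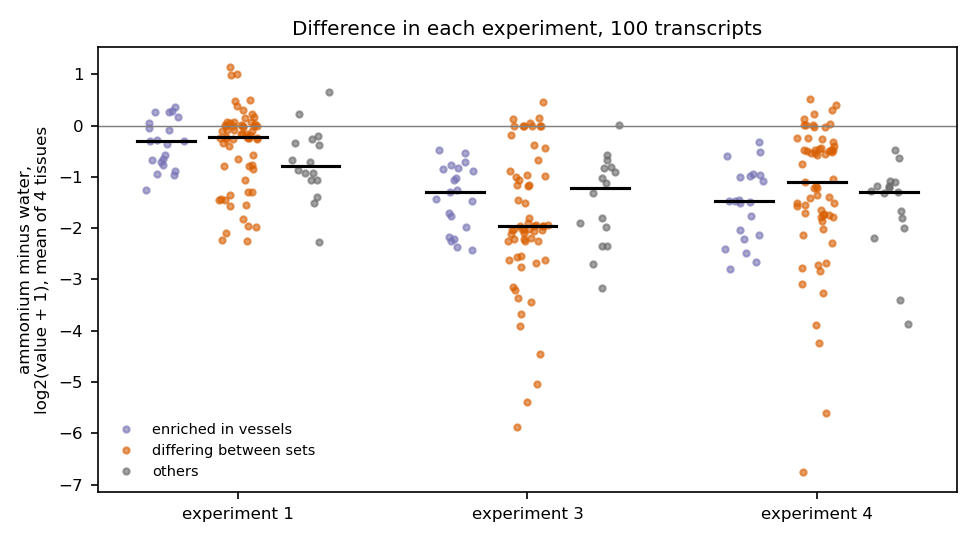
Ammonium minus water in each experiment for the 100 transcripts, as the mean over the 4 tissues on the log2(value + 1) scale; each point is a transcript, black bars are the medians of the 3 coloured classes, and colours mark 21 transcripts enriched in developing vessels, 63 that differed between sets and 16 others. Points of experiment 1 crowd around and just below 0, and those of experiments 3 and 4 lie lower.

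The libraries of a tissue overlapped between treatments for most members. All 3 ammonium values lay below all 3 water values for 41 members in root cap (6.64% of all transcripts), 21 in meristem (6.01%), 21 in vessels (4.24%) and 21 in cortex (9.23%). No tissue met this for 38 members, 1 tissue for 35, 2 for 15, 3 for 9 and all 4 for 3 (0.0531% of all transcripts). The rule used this contrast, and nothing is read from these counts.

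The same measure was then read in libraries that took no part in the choice. The rule was applied to 2 experiments at a time, and the 100 transcripts then chosen were examined in the experiment left out. The transcripts chosen without experiment 1 had median differences between -1.70 and -1.36 in the 2 experiments used. In experiment 1 their medians were -0.04 in root cap, 0.10 in meristem, 0.04 in vessels and 0.05 in cortex, and 3 of the 100 were below 0 in all 4 tissues, against 6.40% of all transcripts.

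Those chosen without experiment 3 had medians in experiment 3 of 0.00 in root cap, meristem and vessels and -0.41 in cortex, where 61 of 100 were below 0, against 54.6% of all transcripts. In that experiment 26 of them were below 0 in all 4 tissues, against 15.8% of all transcripts, and 14 were above 0 in all 4, against 14.9%. Those chosen without experiment 4 had medians in experiment 4 of 0.00, -0.03, 0.05 and -0.10 in root cap, meristem, vessels and cortex. There 17 were below 0 in all 4 tissues, against 15.9% of all transcripts. In cortex 60 of 100 were below 0, against 52.4% of all transcripts, and in vessels 41, against 54.0%. Thus 11 of the 12 medians in a left-out experiment were near 0, with the cortex of experiment 3 the exception. A median near 0 does not mean that single transcripts changed little: in the meristem of experiment 3 the quartiles were -0.85 and 1.15. In root cap, meristem and vessels of that experiment, 11, 9 and 9 of the 100 had a difference of exactly 0. The lists chosen without an experiment share only part of the 100 transcripts. The 100 are named by their rule here, and whether they respond to ammonium was not tested. No test was made of these values.

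**Figure D2:**
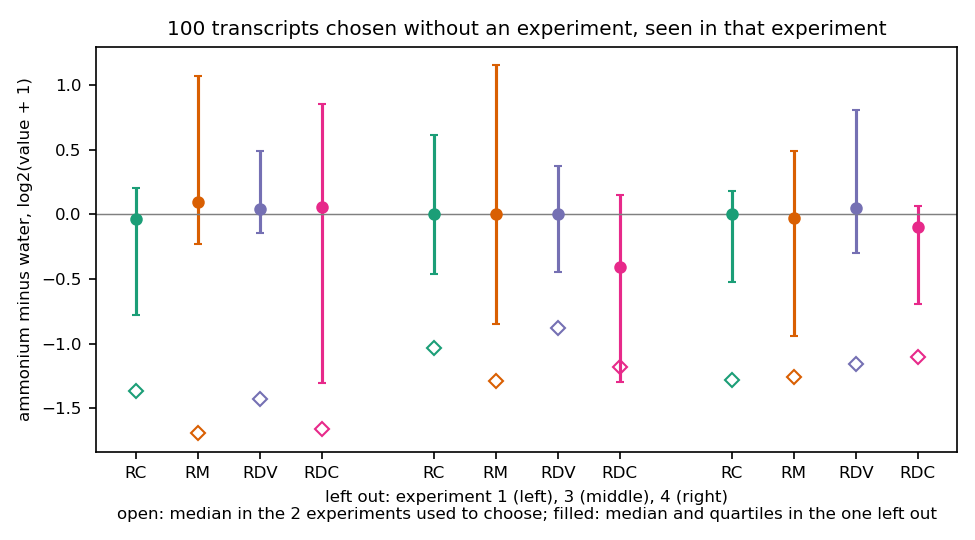
Differences between ammonium and water on the log2(value + 1) scale for transcripts chosen without 1 experiment, by tissue (RC root cap, RM meristem, RDV developing vessels, RDC developing cortex). Open diamonds are medians in the 2 experiments used for the choice and lie between -1.70 and -0.88; filled points with bars are medians and quartiles in the experiment left out and lie between -0.41 and 0.10.

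The choice changed with the experiments used: 57, 31 and 35 of the 100 were chosen again without experiments 1, 3 and 4. A single transcript, pp_85350, was chosen in all 3 cases and was named for that after its values were seen. In vessels it stood at 121, 214 and 268 with water in experiments 1, 3 and 4 and at 235, 28.6 and 43.5 with ammonium. In meristem it stood at 15.5, 72.7 and 33.1 with water and at 33.3, 3.86 and 2.42 with ammonium. In these 2 tissues the ammonium library of experiment 1 was above the water library of that experiment, and those of experiments 3 and 4 were far below theirs.

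Most of the 100 varied between sets, together in the 4 tissues. The difference between experiments within a treatment, averaged over tissues, was tested by a limma F test over 4 contrasts, adjusted over all transcripts tested; this test was added after the data were seen. It called 65 of the 100 members, against 10.7% of all 46960 transcripts tested. The choice favours transcripts with large differences between sets, because a set that stands apart shifts the mean of its treatment in every tissue. This count and the set p-values of members below are therefore a description and are not independent of the choice. The test also takes the 4 tissues of a set as separate, though they may come from the same root tips. Differences between sets took a median of 36% of a member's variance, ammonium 29.7% and tissue 6.63%, against 15.8%, 3.22% and 43.5% over all transcripts tested. These terms have 4, 1 and 3 degrees of freedom, and the rule ranked on the ammonium contrast, so their order is not read as a result. Without experiment 3 the test called 7 members (0.181% of all transcripts) and without experiment 4 it called 30 (2.51%). Deviations from the group mean of 2 tissues of a set had a median correlation of 0.674 across the 100 members and 0.278 across all transcripts tested, as a description over 36 pairs of libraries.

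The ammonium set of experiment 3 was the lowest of the 6 sets for 67 members and that of experiment 4 for 17. The water set of experiment 3 was the highest for 42 members, that of experiment 4 for 40 and that of experiment 1 for 18. The choice favours low ammonium sets and high water sets, and these counts were not set beside all transcripts. Averaged over the 100 transcripts, log2(value + 1) in cortex was 2.16, 2.67 and 3.04 in the water libraries of experiments 1, 3 and 4 and 1.97, 0.74 and 1.52 in the ammonium libraries. In meristem it was 2.50, 2.96 and 2.97 with water and 2.17, 1.14 and 1.33 with ammonium. In each tissue the ammonium library of experiment 3 had the lowest of the 6 means.

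**Figure D3:**
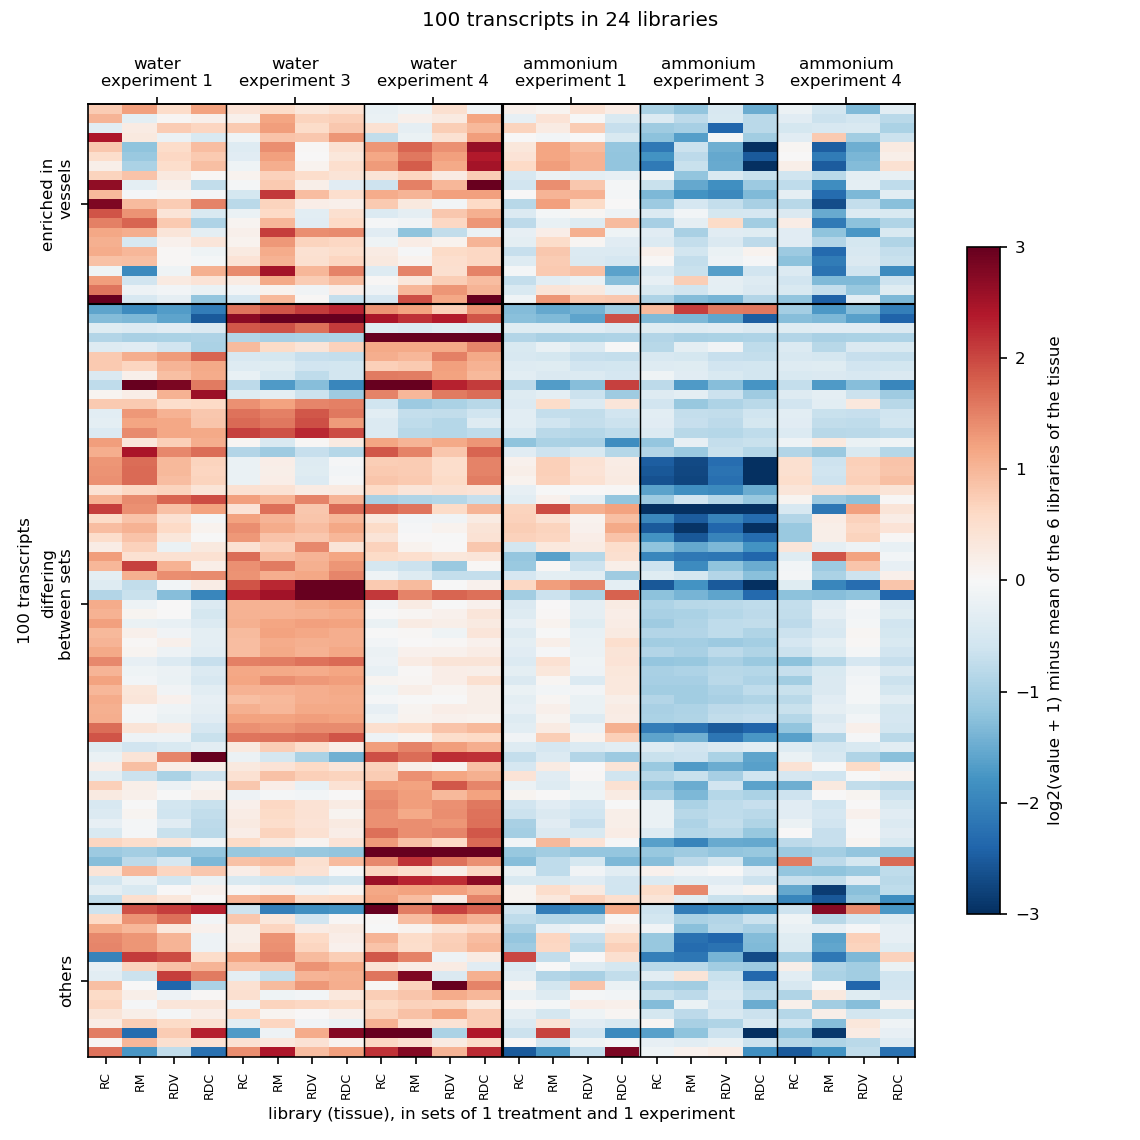
The 100 transcripts (lines) in the 24 libraries (columns, 6 sets of 4 tissues), as log2(value + 1) minus the mean of the 6 libraries of that tissue; blue is below and red above that mean. In the middle group of 63 transcripts, colours change mostly at the borders between sets and are alike over the 4 tissues of a set.

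A subset was present or absent by set. At 18 members, all 4 libraries of some set were at or under 3 reads while all 4 libraries of another set had a value of at least 1, which held for 0.395% of all transcripts. Among 100 transcripts chosen by the opposite rule (the highest smallest difference), 7 had this pattern. Of the 18, 17 were absent from at least 1 ammonium set, 8 from all 3 ammonium sets, and 13 were absent from at least 1 water set.

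The clearest case was pp_107388. It was listed at 0 in 20 libraries and reached 37.6 in root cap, 55.2 in meristem, 52.0 in vessels and 47.5 in cortex in the water set of experiment 4, or 3430 to 4809 reads. It was absent from the water sets of experiments 1 and 3 as it was from the 3 ammonium sets. The tissues did not differ for it (limma F adjusted p = 1.00), and the sets did (adjusted p = 7.11e-13). The latter p was 1 without experiment 4 and 0.263 in DESeq2, and its alternatives ran from 8.56e-14 to 1.

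The transcript with the lowest rule value, pp_57933, followed the same course. Its values in the water set of experiment 4 were 107, 77.4, 131 and 133 in root cap, meristem, vessels and cortex, and the other 20 libraries held at most 4 reads each. Its largest difference was -2.09, which rests on that set alone. The set difference had a limma adjusted p of 7.11e-13, and 0.997 without experiment 4; its alternatives ran from 3.33e-132 to 0.997.

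Transcripts pp_66838 and pp_66840 were high in 2 water sets. In the water sets of experiments 3 and 4, pp_66838 ran from 15.7 to 67.8 and from 10.7 to 20.4 over the 4 tissues, and it was at most 0.0385 in the water set of experiment 1. With ammonium it was at most 0.0849, except in the cortex library of experiment 1, which held 21.1. The values of pp_66840 were alike, with set means of 29.1 ± 18.3 and 11.6 ± 3.62 (SD over 4 libraries) in the water sets of experiments 3 and 4, 0.612 ± 0.306 in that of experiment 1, and 18.0 in the cortex ammonium library of experiment 1. The set difference of pp_66838 had a limma adjusted p of 0.00108, and 0.105 without experiment 3; its alternatives ran from 3.10e-08 to 0.105.

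The cortex ammonium library of experiment 1 also stood apart from the rest of its set at 3 other members. These were present there at a value of at least 1 and at or under 3 reads in the other 3 tissues. Neither pp_66838, with 5 reads in root cap, nor pp_66840 met this mark. Among all transcripts, 28 had this pattern in that library. One of the 3 members was pp_60015, which stood at 15 in that library. In the water set of experiment 1 it stood at 42.7 in meristem, 16.1 in vessels and 10.4 in cortex but at 0.0128, a single read, in root cap. In the water set of experiment 4 it ran from 11 to 25.8, and all 4 water libraries of experiment 3 were at 0. Its set difference had a limma adjusted p of 0.0218, which became 0.066 to 0.0818 without 1 water library of experiment 3 (meristem, vessels or cortex), to 0.750 without that experiment and to 0.108 without experiment 4. Its alternatives ran from 0.000102 to 0.750. In the root cap water library of experiment 1, 4 members were at or under 3 reads while the other 3 tissues had at least 1. Among all transcripts, 75 had that pattern in the root cap water library of experiment 1.

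Other members were absent or low in ammonium sets and present in all 3 water sets. Transcript pp_205797 was at 0 in root cap and meristem and at 1 read in vessels and cortex of the ammonium set of experiment 3. It stood between 4.72 and 11.4 in the 12 water libraries. In the ammonium set of experiment 1 it was low in root cap (0.747), meristem (0.421) and vessels (1.48), but stood at 6.32 in cortex, within the range of water. In the ammonium set of experiment 4 it stood at 2.04 in root cap, 15.4 in meristem, 9.44 in vessels and 3.96 in cortex, so meristem and vessels lay above their 3 water libraries. The set difference (limma adjusted p = 0.00830) had an adjusted p of 0.478 without experiment 3 and 0.0802 without experiment 4, and its alternatives ran from 4.24e-19 to 0.478.

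Transcript pp_85153 was abundant in every set but the ammonium set of experiment 3. That set held 0.380, 0.818, 2.31 and 0.674 in root cap, meristem, vessels and cortex, a mean of 1.05 ± 0.864 (SD over 4 libraries). The 3 water sets had means of 136 ± 33.9, 136 ± 86.8 and 122 ± 24.2, and the ammonium set of experiment 1 had 134 ± 59.6. In the ammonium set of experiment 4, vessels held 182 and meristem 7.49. The set difference (limma adjusted p = 0.000145) had an adjusted p of 0.501 without experiment 3, and its alternatives ran from 9.66e-20 to 0.501. Transcript pp_64679 was likewise lowest in the ammonium set of experiment 3 (0.180 ± 0.128) and highest in the water set of experiment 3 (72.6 ± 70.7), with the other 4 set means between 8.16 and 12.9.

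**Figure D4:**
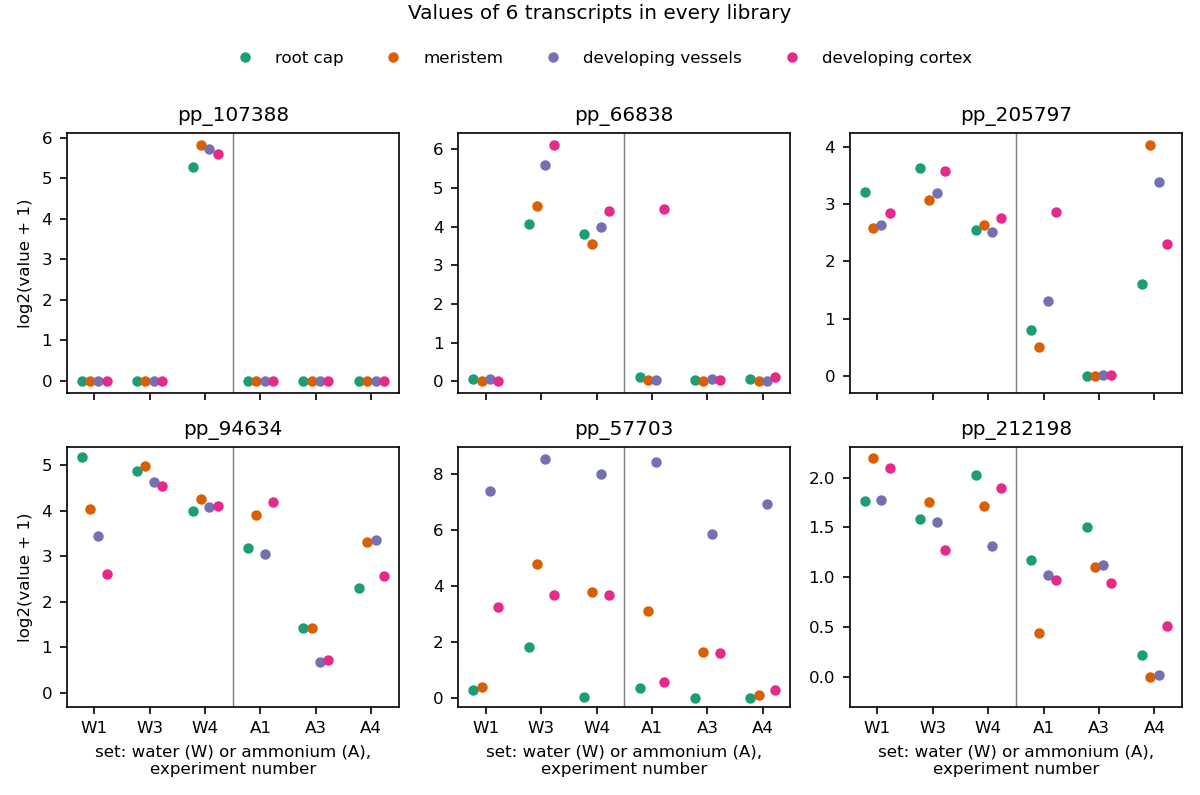
Values of 6 transcripts in every library as log2(value + 1); sets are water (W) or ammonium (A) with the experiment number, and each point is the library of a tissue. Transcript pp_107388 was present in the water set of experiment 4 alone, pp_205797 was at or under 1 read in the ammonium set of experiment 3, pp_57703 was highest in vessels in every set, and pp_212198 was lower with ammonium in every tissue.

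The 3 members with the highest water means, pp_179266, pp_179269 and pp_179276, averaged 179, 178 and 173 over the 12 water libraries and 97.1, 96.4 and 93.5 over the 12 ammonium libraries. Their values were close within libraries, such as 252, 249 and 243 in the root cap water library of experiment 1. They are therefore not taken as 3 independent observations. For pp_179266 the ammonium set of experiment 3 had a mean of 16.2 ± 6.34 (SD over 4 libraries), the water set of that experiment 97.8 ± 32.1, and the other 4 sets 136 to 251. Its tissue means over 6 libraries lay between 106 in cortex and 179 in meristem and did not differ in the limma F test (adjusted p = 0.799). The set difference had a limma adjusted p of 6.30e-05, and 0.922 without experiment 3; its alternatives ran from 1.91e-19 to 0.922.

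The longest stretch of neighbouring identifiers held 15 members in runs of 8 and 7, pp_94619 to pp_94626 and pp_94629 to pp_94635. Their values over the 24 libraries correlated pairwise with a median r of 0.975 (lowest 0.868, 105 pairs), so they are not 15 independent observations. The intervening pp_94627 and pp_94628 had largest differences of -0.55 and -0.42 and missed the choice, and pp_94636, the next identifier, had 0.12. Of the 15, pp_94634 was the most negative by the rule. In vessels it stood at 9.92, 23.6 and 15.8 with water in experiments 1, 3 and 4 and at 7.25, 0.613 and 9.27 with ammonium.

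Within the stretch, the median of the set means was 1.66, 3.71 and 1.33 in the water sets of experiments 1, 3 and 4 and 1.11, 0.169 and 0.618 in the ammonium sets. The water set of experiment 3 was the highest and the ammonium set of experiment 3 the lowest. In experiment 1 the mean difference over tissues ran from -0.40 to 0.14 over the 15 transcripts, in experiment 3 from -3.68 to -1.94 and in experiment 4 from -1.21 to -0.33. The tissues of experiment 1 did not move alike. There pp_94634 stood at 34.9 with water and 7.99 with ammonium in root cap, at 15.3 and 13.9 in meristem, and at 5.11 and 17.2 in cortex. With all experiments, the differences of the 15 ran from -2.37 to -1.23 in root cap and from -1.25 to -0.62 in cortex. For pp_94634 the set difference had a limma adjusted p of 0.00406, and 0.684 without experiment 3; its alternatives ran from 9.07e-08 to 0.684. The set test called all 15, but 0 of them without experiment 3 and 6 without experiment 4.

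A second subset differed between tissues, and 3 of its members also had a set call. The tissue difference averaged over treatments, a contrast the rule did not rank on, was called by the limma F test for 29 of the 100 members, against 62.9% of all transcripts tested. The choice asks for a lower mean in each of 4 tissues, which only transcripts present in all 4 can give, so this lower share is not independent of it. Nor was it stable: without experiment 1 the share of all transcripts tested was 28.2%. That lies within the 24 to 30 members called when a library or experiment was left out. The tissue and set calls fell mostly on different members: 62 had a set call alone (7.19% of all transcripts tested), 26 a tissue call alone (59.3%), 3 both (3.54%) and 9 neither (29.9%).

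Where tissues differed among the members, vessels were most often the higher, at shares somewhat above those of all transcripts. By mean level alone, vessels were the highest tissue for 37 members and meristem for 33, against 28.1% and 31.5% of all transcripts tested. Vessels were higher than root cap for 24 members (17.7% of all transcripts tested), higher than meristem for 22 (17.6%) and higher than cortex for 27 (20.6%). Vessels were lower than cortex for 1 member (18.6%) and lower than root cap or meristem for 0 (16.5% and 11% in limma; 0 and 0 at an unadjusted p under 0.05, 0 and 0 in edgeR, 2 and 2 in DESeq2). Meristem was higher than root cap for 13 members (7.67%) and higher than cortex for 9 (23.7%). The count of 13 lay at 7 or 8 without each of 5 libraries (root cap water of experiments 3 and 4, root cap ammonium of experiment 1, meristem water of experiment 3 and meristem ammonium of experiment 1), and at 5, 3 and 4 without experiments 1, 3 and 4. The count of 9 was 2 without experiment 1, 15 when the ammonium libraries of meristem from experiments 3 and 4 were left out, and 22 with the set as a block. Cortex was higher than root cap for 2 members (4.11%) and higher than meristem for 1 (23.8%), and root cap was higher than meristem or cortex for 0 (13.6% and 3.79% in limma; 0 and 1 at an unadjusted p under 0.05, 0 and 0 in edgeR and in DESeq2).

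Enriched means a level that passed the threshold against all 3 other tissues and exceeded each by 1 or more on the log2 scale. In vessels 21 members were enriched (6.46% of all transcripts tested), in cortex 1 (1.27%), and in root cap and meristem 0 (1.6% and 0.192% in limma; 0 and 0 at an unadjusted p under 0.05, in edgeR and in DESeq2). With the same 2 meristem libraries left out, the meristem count was 2. The 21 were 21% of the members and 0.692% of the 3035 transcripts enriched in vessels. Their median differences were -0.30, -1.30 and -1.46 in experiments 1, 3 and 4, so they too were uneven between experiments.

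Among these, pp_57703 had the greatest smallest difference to another tissue. In vessels it stood at 168, 370 and 259 with water in experiments 1, 3 and 4 and at 341, 57.5 and 122 with ammonium, while root cap held at most 2.57. Over 6 libraries it averaged 220 ± 124 (SD) in vessels, 8.34 ± 10.4 in meristem, 5.83 ± 5.52 in cortex and 0.515 ± 1.02 in root cap, and the vessel level lay above meristem by 5.22 on the log2 scale (SE 0.63, limma adjusted p = 4.10e-06). Its ammonium value in the vessels of experiment 1 was above 2 of the 3 water values, so the treatments overlapped there.

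Transcript pp_236176 averaged 82.7 ± 44.3 (SD, 6 libraries) in vessels, 5.62 ± 5.20 in meristem, 3.25 ± 6.62 in cortex and 1.76 ± 3.86 in root cap. Vessels lay above meristem by 3.95 on the log2 scale (SE 0.69, limma adjusted p = 0.000272). In vessels it stood at 77.3, 79.6 and 141 with water and at 122, 18.9 and 56.7 with ammonium, so those libraries overlapped too. The member pp_201987 was both among the 10 lowest by the rule and among the 5 highest in water. It stood at 414, 293 and 736 in vessels with water and at 554, 103 and 103 with ammonium, so the ammonium library of experiment 1 lay above 2 of the 3 water libraries.

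The cortex-enriched member was pp_133770. In cortex it stood at 73.1, 52.2 and 51.5 with water and at 14.1, 3.95 and 15.6 with ammonium, and these groups did not overlap. It averaged 35.1 ± 27.5 (SD, 6 libraries) in cortex and 2.32 ± 3.42 in vessels, and cortex lay above vessels by 3.45 on the log2 scale (SE 0.55, limma adjusted p = 5.58e-05). Outside cortex its water values were uneven, reaching 12.5 in the meristem of experiment 4 against 0.251 and 0.195 in experiments 1 and 3. It was no longer called enriched without experiment 1.

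The 21 vessel-enriched members can be set beside all transcripts enriched in vessels, though the choice fixed the direction of the 21. Over all 3035, the median difference between ammonium and water was -0.08 in root cap, -0.20 in meristem, -0.28 in vessels and -0.25 in cortex, and 74.1%, 78.5%, 76.6% and 85.0% of them were below 0. For the 21 members the medians were -0.91, -1.28, -0.72 and -1.26, further below 0 in each tissue, as the choice requires of its members. In cortex, the mean of log2(value + 1) over the 3035 was 1.02, 1.26 and 1.37 in the water libraries of experiments 1, 3 and 4 and 0.88, 0.88 and 0.77 in the ammonium libraries. In the same libraries the 21 members averaged 2.26, 2.64 and 3.40 with water and 1.70, 1.05 and 1.48 with ammonium. In meristem and vessels the 3035 did not lie lower with ammonium in every experiment. Their meristem means were 1.00, 1.75 and 0.98 with water and 1.17, 0.98 and 0.75 with ammonium in experiments 1, 3 and 4. Their vessel means were 3.10, 3.54 and 3.56 with water and 3.71, 3.17 and 2.53 with ammonium, so the ammonium library of experiment 1 was the highest of the 6. In root cap the groups overlapped narrowly, the highest ammonium mean being 0.78 and the lowest water mean 0.76. The part of these levels in the differences of the 21 members was not tested.

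**Figure D5:**
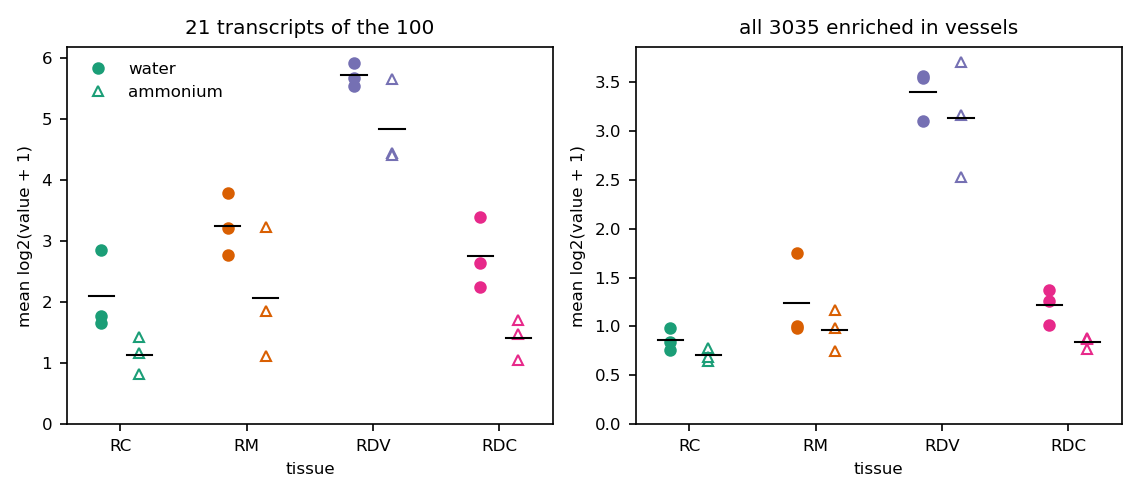
Mean log2(value + 1) per library of the 21 vessel-enriched members (left) and of all 3035 transcripts enriched in vessels (right), by tissue (RC root cap, RM meristem, RDV developing vessels, RDC developing cortex); filled circles are water, open triangles ammonium, bars group means. In cortex and root cap the 3 ammonium libraries lie below the 3 water libraries for the 21 members, and for all 3035 the treatments overlap in vessels, meristem and root cap.

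The 3 members whose ammonium libraries lay below the water libraries in all 4 tissues were low in abundance. For pp_212198, water values in meristem were 3.58, 2.37 and 2.27 in experiments 1, 3 and 4, and ammonium values 0.359, 1.14 and 0. In root cap they were 2.41, 2.00 and 3.07 with water and 1.25, 1.83 and 0.166 with ammonium, the closest pair being 2.00 and 1.83, both of experiment 3. Its neighbour pp_212199 averaged 1.61 over the 12 water libraries and 0.452 over the 12 ammonium libraries, and shares its neighbour's course: the meristem ammonium libraries of experiment 4 were at 0 for both.

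The third, pp_223096, was also enriched in vessels (limma F adjusted p = 3.06e-07 over tissues). In vessels it stood at 6.15, 7.50 and 5.95 with water and at 3.81, 3.25 and 3.80 with ammonium. In cortex it stood at 0.832, 1.32 and 1.98 with water and at 0.505, 0.115 and 0.524 with ammonium. Its mean differences were -0.76, -1.03 and -0.99 in experiments 1, 3 and 4, the most even course of the 3, and its sets did not pass the test (limma F adjusted p = 0.767). These 3 transcripts were picked from 47118 for this pattern, and 25 in all had it.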

How the data were processed

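Per the labels, cDNA from 24 microdissected areas was made and amplified by SMART-Seq chemistry, and read pairs were 150 bp long. The tools BWA and bcl2fastq are named per the submitters' processing notes; the sources used here give no counting program, reference, scaling or filter. Each deposited value is a scaled signal: divided by what 1 read is worth, 100% came out whole to within 0.01 reads, and column sums ran from 793680 to 1210370, so they are not plain CPM as the design had assumed, and the same log-scale test was used. No column lay outside the 24 samples.

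Tests used limma 3.58.1 in R 4.3.3 (empirical Bayes with trend) on log2(value + 1) in a model of 8 groups over 24 libraries. Folds on this scale understate the change of low transcripts. Benjamini-Hochberg adjustment ran over all 46960 transcripts kept, and the threshold was 0.05. Alternatives were other pseudocounts, filters, scalings, library weights, blocks, left-out libraries, and edgeR 4.0.16 and DESeq2 1.42.0 on recovered reads. The limma tissue and set tests, but not the alternatives, were tried on simulated reads. These were drawn independently for each library, so they do not show error rates where the tissues of a set vary together. Named transcripts were the 10 lowest by the rule, the 5 highest in water, up to 2 enriched per tissue, those not overlapping in 4 tissues, the 2 longest identifier runs and the 3 ranks on each side of the border; others are said to be named after their values were seen. Members, lists and tests were chosen with earlier results of these data known. Figures used matplotlib 3.10.9.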

Additional observations from a re-analysis of the deposited data

How the results depend on the processing

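All 100 members stayed below 0 in all 4 tissues under the other pseudocounts and scalings tried; 75 to 99 did without an experiment, 95 to 100 without a library and 80 when 2 meristem libraries, ammonium of experiments 3 and 4, were left out (an alternative chosen after seeing the data). The rule still chose 60 of them with pseudocount 0.1, 49 with pseudocount 4, 51 without those 2 libraries, and 31 to 89 when a library or experiment was left out. The median differences in root cap, meristem, vessels and cortex were -1.95, -1.79, -1.42 and -1.70 with pseudocount 0.1, as the smaller constant dictates for low values; with pseudocount 4 they were -0.57 in root cap and -0.59 in meristem, and the meristem median was -0.49 without the 2 meristem libraries. Left-out libraries and experiments gave -1.24 to -0.99, -1.39 to -0.92, -1.16 to -0.68 and -1.47 to -0.65. The held-out value of experiment 1, averaged over tissues, was 0.32 with pseudocount 0.1 against 0.04. Tissue calls numbered 24 to 30 without a library or experiment. Of all transcripts tested, 28.2%, 43.7% and 47.2% had a tissue call without experiments 1, 3 and 4. Set calls numbered 40 with the filter at 5, which kept 70 members, and 7 to 70 without a library or experiment.

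Counts for tissue pairs moved mostly at low numbers; the cause was not tested. DESeq2 gave 21 for meristem over root cap, 2 for root cap over vessels, 4 for cortex over root cap, 2 for meristem over vessels, 4 for cortex over meristem and 4 for cortex over vessels. edgeR gave 1 for cortex over root cap and 2 for cortex over meristem. Library weights gave 6, 4 and 3 for cortex over root cap, meristem and vessels, and 2 enriched in cortex. Pseudocount 4 gave 2 for cortex over meristem. Without the 2 meristem libraries, meristem over vessels was 2, meristem over cortex 15 and enrichment in meristem 2. Left-out libraries and experiments gave 3 to 15 for meristem over root cap, 0 to 1 for root cap over vessels, 0 to 3 for cortex over root cap, 2 to 12 for meristem over cortex, 1 to 4 for cortex over meristem, 1 to 2 for cortex over vessels and 0 to 1 enriched in cortex.

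The experiment number as a replicate block gave 2 for cortex over meristem and 2 for cortex over vessels. The set as a replicate block gave 1 for root cap over vessels, 7 for cortex over root cap, 1 for meristem over vessels, 22 for meristem over cortex, 5 for cortex over meristem and 2 for cortex over vessels, and 39 tissue calls against 29. Deviations of libraries within a set were correlated over 0.1 in 31 of 36 pairs, and 21 of 24 libraries correlated best with their own number, a hint from the data that a set's tissues vary together. The criterion for pairing, over 0.1 in all 36, was not met. The titles call the number an experiment, but no label says whether a set's tissues share root tips. The fit without the block stayed the main one, so its tissue p-values and counts do not take the sets into account.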
